A study of Mus musculus with 5 samples.

Results

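The 9 carbonic anhydrase genes Car2, Car3, Car4, Car5b, Car8, Car12, Car13, Car14 and Car15 and the bicarbonate cotransporter gene Slc4a4 were followed in whole mouse kidneys. They were chosen by symbol. All 10 were found among the 23997 rows of the deposited table, and all 10 had a mean of at least 1 FPKM, the level above which 12640 rows were tested. FPKM are fragments scaled to transcript length and to the mapped fragments of the library, so levels of different genes can be set side by side. The study asked how metalloproteinases take part in basement membrane remodelling and cystic widening of tubules. It sequenced whole kidneys of mice aged 8 weeks, 2 libraries with the genotype label Pkd1 knockout (titled SKO) and 3 labelled as uninduced controls. Pkd1 encodes polycystin-1, whose loss makes kidneys cystic. The series text calls the mutants PkdTKO. The labels name no allele, inducing agent, Cre driver, strain or sex for either group, and do not say whether each library is 1 animal, so p-values measure only the spread between these libraries, which may be technical.

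Carbonic anhydrases interconvert carbon dioxide and bicarbonate. In the proximal tubule, enzymes in the apical membrane act on filtered bicarbonate and the cytosolic enzyme acts inside the cell, after which Slc4a4 (NBCe1) carries bicarbonate with sodium across the basolateral membrane. Further along, the cytosolic enzyme supplies acid and base to the intercalated cells. In whole kidney, fewer cells of a type and less RNA per cell cannot be told apart.

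Several facts of the libraries touch all results. Pkd1 stood at 2.72 and 3.60 FPKM in the libraries labelled knockout 0 and knockout 1, against 3.22, 3.51 and 3.49 FPKM in control 0, 1 and 2, so this whole-gene value does not check the labels. The names knockout 0 and knockout 1 below mean the libraries so labelled. Xist, the X-silencing transcript of female cells, was at 30.8 and 80.3 FPKM in knockout 0 and 1, and at no more than 0.0275 FPKM in the controls. The Y-linked Ddx3y was at 7.30 and 0.00194 FPKM in knockout 0 and 1, against 17.8 to 18.6 FPKM in the controls. Knockout 0 thus held both Xist and Y-linked RNA, and knockout 1 held Xist with Ddx3y near 0. The knockout libraries therefore differed from each other, as well as from the controls, in these genes. Between the groups, the sex of the RNA and the genotype label cannot be told apart here. The injury markers Havcr1, Lcn2, Krt20 and Vcam1 summed to 305.3 FPKM in knockout 0 and 11.7 FPKM in knockout 1, against 8.87 to 11.6 FPKM in the controls. Macrophage markers (7 of 8 found in the table) summed to 440.3 and 148.6 FPKM in knockout 0 and 1, against 98.6 to 110.1 FPKM in the controls. The lowest values of single-transcript genes lay on steps that, if 1 step is 1 fragment, give about 91900000 and 216000000 mapped fragments for knockout 0 and 1 and 108000000 to 177000000 for the controls.

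Carbonic anhydrases with an extracellular active site (Car4, Car12, Car14 and Car15) and the low-level Car3 and Car8 had lower FPKM in both knockout libraries than in any control. For Car12 this did not hold once the libraries were scaled to equal sums. Car2, Slc4a4, Car5b and Car13 overlapped between the groups. With p-values from limma adjusted by Benjamini-Hochberg over all genes and a threshold of 0.05, 0 of the 10 genes passed as higher and 0 as lower. Of all tested genes 6.34% passed, 2.73% as higher and 3.62% as lower. At an unadjusted p under 0.05, 5 of the 10 were lower (Car3, Car4, Car8, Car14 and Car15) and 0 were higher, where 16.6% of all tested genes were lower and 12.5% higher. In FPKM, both knockout libraries lay below every control for 6 of the 10 genes and above every control for 0, where 26.3% of all tested genes lay below and 21.9% above. The median log2 fold change, fitted on log2(FPKM + 1), was -0.41 over the 10 genes and -0.016 over all tested genes. The genes were chosen with earlier results of these data known, so these counts describe them and no more. For 2 against 3 libraries, 0.1 is the smallest p that exact permutation allows.

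**Figure D1:**
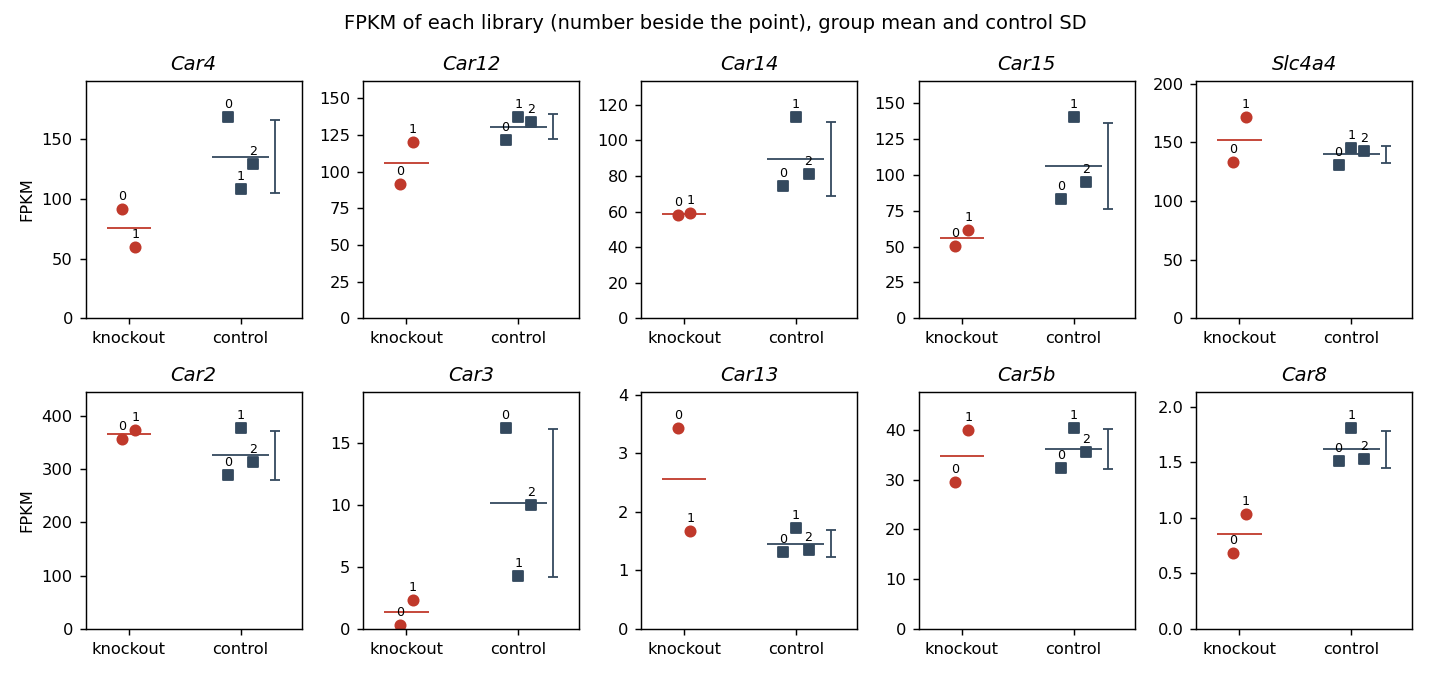
FPKM of each gene (vertical axes, each starting at 0) in the 2 knockout libraries (circles) and the 3 control libraries (squares). The number beside a point is the library's number, horizontal lines are group means, and the bar at the right of each panel is the control SD. For Car4, Car12, Car14, Car15, Car3 and Car8 both knockout points lie below every control point.

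Car2 encodes the cytosolic enzyme whose loss causes renal tubular acidosis in humans and was the most abundant of the 10 transcripts in both groups. Its level was at percentile 98.3 of all tested genes in the knockout libraries and at percentile 97.9 in the controls. By mean FPKM the controls followed with Slc4a4, Car4, Car12, Car15 and Car14, whose ranges overlapped from each to the next, then Car5b and Car3, each set apart, and then Car8 and Car13, whose ranges overlapped. In the knockout libraries the order was Car2, Slc4a4, Car12, Car4, Car14, Car15, Car5b, Car13, Car3 and Car8. There the ranges of Car12 and Car4, of Car14 and Car15, of Car13 and Car3, and of Car3 and Car8 overlapped, and that of Slc4a4 lay above that of Car12.

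Car4 encodes a carbonic anhydrase anchored by glycosylphosphatidylinositol to the brush border of the proximal tubule. Its FPKM was 91.8 in knockout 0 and 59.5 in knockout 1, against 168.4, 108.1 and 129.6 in control 0, 1 and 2. The groups did not overlap, control 1 stood nearest to the knockout libraries, and the 2 knockout libraries were at 67.9% and 43.9% of the control mean. On the log2(FPKM + 1) scale the groups differed by -0.84 (SE 0.255 and 95% interval -1.48 to -0.20), with an adjusted p by limma of 0.107 and an exact permutation p of 0.1. Without knockout 0 the difference was -1.15 and without knockout 1 it was -0.53, each resting on 1 knockout library. Of the 10 tested proximal tubule markers, 2 put the 5 libraries in the same order as Car4, and both are named here after their values were seen. Slc7a13, an amino acid transporter of the last proximal segment, was one, with 174.6 and 1.83 FPKM in knockout 0 and 1, against 630.8, 305.9 and 523.9 FPKM in control 0, 1 and 2. The organic anion transporter Slc22a6 was the other, with 245.6 and 164.7 FPKM, against 324.7, 267.9 and 286.7 FPKM. The other markers did not follow this order, and 3 had a positive log2 fold change (Cubn 0.48, Slc5a12 0.32 and Slc3a1 0.14). How many of all tested genes share the order of Car4 was not counted. Cubn, a receptor for filtered proteins, was above every control, with 50.9 and 61.1 FPKM in knockout 0 and 1, against 39.1, 42.1 and 38.2 FPKM in control 0, 1 and 2. The Y-linked Ddx3y was likewise lowest in knockout 1 (0.00194 FPKM), next lowest in knockout 0 (7.30 FPKM) and highest in the controls. The part of the markers, or of the sex of the RNA, in the Car4 values was not tested.

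Car15 encodes another enzyme anchored to the outer face of the membrane, active in the mouse and lost as a working gene in humans. Its FPKM was 50.4 in knockout 0 and 61.7 in knockout 1, against 83.3, 140.2 and 94.7 in control 0, 1 and 2. Both knockout libraries were low and control 1 stood above the other controls. Fitted over both groups, the difference was -0.88 (SE 0.238 and 95% interval -1.48 to -0.28), with an adjusted p by limma of 0.0885 and an exact permutation p of 0.1, and each knockout library was lower on its own (-1.02 for knockout 0 and -0.74 for knockout 1). In the annotation Car15 shares its strand with an overlapping gene model, Gm20518, for which the counting rule is not given in the sources used here.

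Car14 encodes a transmembrane enzyme of the proximal tubule, known in the mouse. Its FPKM was 57.8 in knockout 0 and 59.3 in knockout 1, against 74.3, 113.1 and 81.2 in control 0, 1 and 2. The knockout libraries nearly coincided below the controls, of which control 1 was again the highest. On the log2(FPKM + 1) scale the groups differed by -0.58 (SE 0.186 and 95% interval -1.05 to -0.11), with an adjusted p by limma of 0.119 and an exact permutation p of 0.2. Aph1a overlaps Car14 on the opposite strand, and without stated strandedness their reads cannot be told apart. Aph1a was at 49.5 and 49.8 FPKM in knockout 0 and 1, against 52.1, 52.7 and 55.2 FPKM in the controls.

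Car12 encodes a transmembrane enzyme with its active site outside the cell. Its FPKM was 91.3 in knockout 0 and 120.4 in knockout 1, against 121.4, 137.1 and 133.8 in control 0, 1 and 2. In FPKM knockout 1 lay just under control 0, and knockout 0 well below it. All rows summed to 462814 FPKM in knockout 1 and 507053 FPKM in control 0. Scaled to equal sums, knockout 1 would lie above control 0 for Car12. Fitted over both groups, the difference was -0.31 (SE 0.138 and 95% interval -0.66 to 0.03), with an adjusted p by limma of 0.200. The fitted difference was -0.23 after TPM rescaling and -0.18 after quantile normalization. Without knockout 1 the difference was -0.51 and without knockout 0 it was -0.12, each resting on 1 knockout library. Whether knockout 0 differs from knockout 1 was not tested for this or any other gene.

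Control 0 had the highest Car4 value and the lowest Car14 and Car15 values of the controls, so these 3 genes did not vary together among the controls. Their values differed in the same direction between the groups. The stretches of 250 bases before the RefSeq starts of Car4 and Car14 are shown because their values were low in both knockout libraries. Car12 and Car15 were low in both as well, and their stretches were searched but are not shown. The stretch of Car9, the carbonic anhydrase that passed the test, was searched for the same motifs. The sequences are from RefSeq (GRCm38.p6, the assembly called mm10), 5′ to 3′ on the strand of the gene, with matches to the searched motifs in capitals. RefSeq starts differ from the outermost GENCODE M21 starts, so that 6 bases of the Car14 stretch, 60 of the Car9 stretch and 0 of the Car4 stretch lie inside the GENCODE gene.
Car4, chr11:84957504-84957753, plus strand: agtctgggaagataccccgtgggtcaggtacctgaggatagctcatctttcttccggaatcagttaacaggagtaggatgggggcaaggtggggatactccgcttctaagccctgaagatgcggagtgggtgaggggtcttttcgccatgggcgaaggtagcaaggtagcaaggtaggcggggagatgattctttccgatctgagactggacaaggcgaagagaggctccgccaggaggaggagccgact
Car14, chr3:95904686-95904935, minus strand: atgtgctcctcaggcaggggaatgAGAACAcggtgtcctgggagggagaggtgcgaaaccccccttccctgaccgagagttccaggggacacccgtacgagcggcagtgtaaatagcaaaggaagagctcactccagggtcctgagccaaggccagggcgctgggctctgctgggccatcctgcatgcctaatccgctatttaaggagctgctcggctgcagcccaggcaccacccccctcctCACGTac
The motifs were the core of the hypoxia response element (ACGTG), a half-site of the proximal tubule factor HNF1 (GTTAAT) and a half-site of steroid receptors (AGAACA), each searched on both strands, with no overlap between their matches here. They occur in 16.6%, 6.43% and 16.1% of all 32851 promoter entries of the same length. Car9 and Car14 each held 1 hypoxia core match, CACGT on the gene's strand, at positions -18 and -7 from the start, and Car14 also held AGAACA at position -226. The stretch of Car4 held no match to these letters, and neither did those of Car12, Car15, Car5b and Slc4a4. Of these, 178 bases of the Car15 stretch and all 250 of each Slc4a4 stretch lie inside the GENCODE gene. For Car12 and Car5b, 0 bases do. Of the 10 genes, only Car14 held a match among those with an entry. RefSeq entries were matched for 6 of the 10 genes, and not for Car2, Car3, Car8 and Car13.

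The values of Slc4a4 overlapped between the groups. Its FPKM was 133.2 in knockout 0 and 171.3 in knockout 1, against 131.0, 145.1 and 142.8 in control 0, 1 and 2. Knockout 0 lay within the range of the controls and knockout 1 above it. On the log2(FPKM + 1) scale the groups differed by 0.11 (SE 0.128 and 95% interval -0.21 to 0.44), with an adjusted p by limma of 0.596. Within a library, a ratio of 2 genes does not depend on how the library was scaled. The ratio of Car4 to Slc4a4 in FPKM was 0.689 and 0.347 in knockout 0 and 1, against 1.29, 0.745 and 0.908 in control 0, 1 and 2. The ratio of Car15 to Slc4a4 was 0.379 and 0.360 in knockout 0 and 1, against 0.636, 0.966 and 0.663 in the controls, and that of Car14 to Slc4a4 was 0.434 and 0.346, against 0.567, 0.779 and 0.569. For all 3 ratios the groups did not overlap. Car4, Car15 and Car14 were already below every control on their own and Slc4a4 was not, so the ratios are no separate test.

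**Figure D2:**
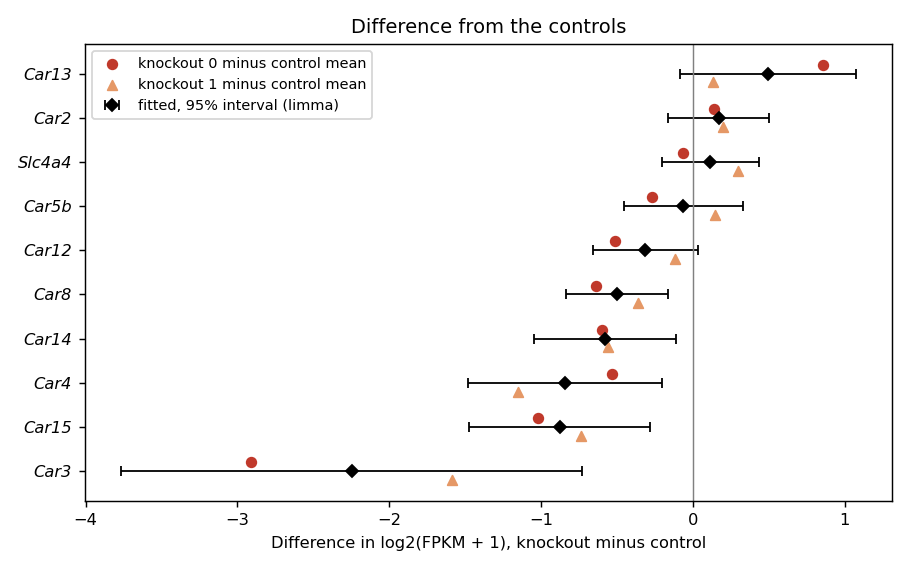
Difference in log2(FPKM + 1), knockout minus control (horizontal axis), of each of the 10 genes. Diamonds with bars are the fitted values with 95% intervals, and circles and triangles are knockout 0 and knockout 1 minus the control mean. The intervals of Car3, Car15, Car4, Car14 and Car8 lie below 0 and those of the other 5 genes hold 0, before adjustment over all genes.

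Car2 had an FPKM of 357.5 in knockout 0 and 372.9 in knockout 1, against 288.4, 377.5 and 313.4 in control 0, 1 and 2. The knockout libraries lay inside the range of the controls. Fitted over both groups, the difference was 0.17 (SE 0.133 and 95% interval -0.16 to 0.50), with an adjusted p by limma of 0.439. Red cells also hold much Car2. The erythroid markers summed to 131.7 and 8.34 FPKM in knockout 0 and 1, against 45.5, 19.5 and 34.3 FPKM in the controls. Their part in the Car2 values was not tested.

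The sum over the 4 genes with an extracellular active site, a grouping by known location made after the values were seen, was 291.3 FPKM in knockout 0 and 300.9 FPKM in knockout 1, against 447.3, 498.5 and 439.3 FPKM in control 0, 1 and 2. It averaged 296.1 FPKM in the knockout libraries and 461.7 ± 32.1 FPKM in the controls (SD, n = 3). These 4 genes made up 42.7% and 41.9% of the summed FPKM of the 9 carbonic anhydrases in knockout 0 and 1, against 56.8%, 53.9% and 54.8% in the controls. Their sum over Car2 gave a ratio of 0.815 and 0.807 in knockout 0 and 1, against 1.55, 1.32 and 1.40 in the controls. The knockout libraries were close in this ratio. Car4 was at 91.8 and 59.5 FPKM and Car12 at 91.3 and 120.4 FPKM in knockout 0 and 1. Differences between the knockout libraries were not tested. No test was made on these sums, since the grouping came from the values.

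**Figure D3:**
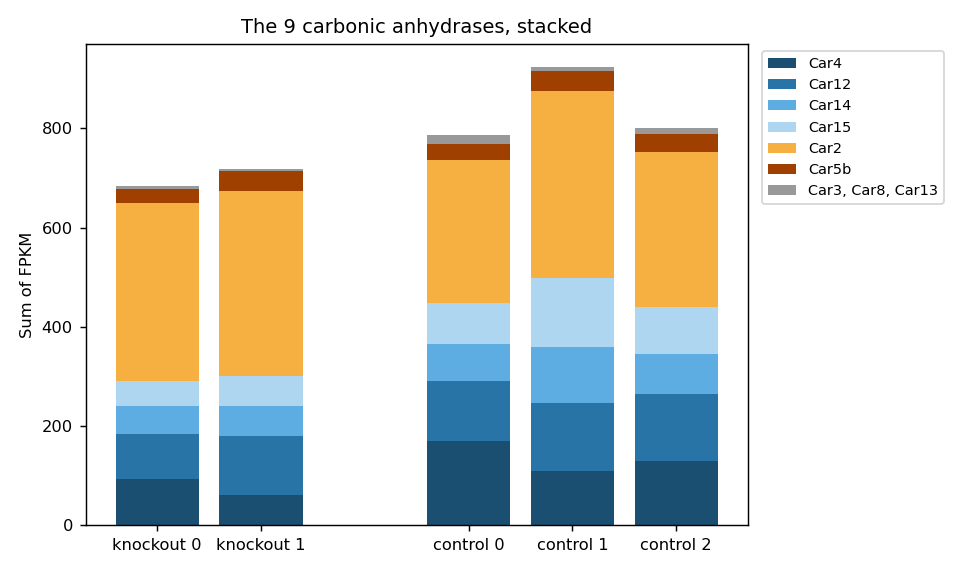
FPKM of the 9 carbonic anhydrases, stacked (vertical axis, from 0), in the 2 knockout libraries and the 3 controls. Blue shades are the genes with an extracellular active site, which sum to 291.3 and 300.9 FPKM in the knockout libraries and to 439.3 to 498.5 FPKM in the controls, and orange is Car2.

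Markers of nephron cells are set beside these values. Of 10 tested proximal tubule markers 0 passed by limma, with 3 lower and 1 higher at an unadjusted p under 0.05 and a median log2 fold change of -0.11. Lrp2 and Slc34a1, which proximal tubules express strongly, are listed at 0 in all 5 libraries. The list summed to 1931 and 1953 FPKM in knockout 0 and 1, against 2720, 2374 and 2620 FPKM in control 0, 1 and 2. Much of this gap lay in Slc7a13, with a mean of 88.2 FPKM in the knockout libraries and 486.8 FPKM in the controls. Of the 10 markers, 3 had a positive log2 fold change. All 8 tested intercalated cell markers had a negative log2 fold change, where 53.0% of all tested genes had one, and that of Kit was -0.014. The list had a median of -0.53 (-0.88 in knockout 0 and -0.23 in knockout 1), and 0 passed by limma, with 3 lower and 0 higher at an unadjusted p under 0.05, where 16.6% of all tested genes were lower and 12.5% higher. They summed to 89.6 and 139.3 FPKM in knockout 0 and 1, against 147.6, 197.5 and 166.9 FPKM in the controls. A negative log2 fold change was also seen in 5 of 5 tested principal cell markers (median -0.10). Those of Hsd11b2 (-0.0065) and Scnn1g (-0.0020) were near 0. The median of this list was -0.35 in knockout 0 and 0.055 in knockout 1. A negative log2 fold change was seen in 2 of 3 distal convoluted tubule markers and 2 of 5 thick ascending limb markers. Of the thick ascending limb markers 1, Umod, passed as higher by limma. It was at 784.3 and 1144 FPKM in knockout 0 and 1 and listed at exactly 0 in all 3 controls, which may be a failed estimate. The part of any of these cell types in the carbonic anhydrase values was not tested.

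Car3 encodes a cytosolic enzyme of low activity that is abundant in fat and skeletal muscle. Its FPKM was 0.335 in knockout 0 and 2.34 in knockout 1, against 16.3, 4.31 and 10.02 in control 0, 1 and 2. Both knockout libraries were below every control, and the controls themselves were widely spread. The difference of -2.25 in log2(FPKM + 1) was the greatest in size of the 10 (SE 0.604 and 95% interval -3.76 to -0.73), with an adjusted p by limma of 0.0872 and an exact permutation p of 0.2. Without knockout 1 the difference was -2.91 and without knockout 0 it was -1.59, each resting on 1 knockout library. The value in knockout 0 rests on about 24.7 to 51.6 fragments, depending on the transcript length, if 1 step is 1 fragment.

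Most of the listed adipocyte markers varied across the libraries along with Car3. The 6 markers Adipoq, Cidec, Plin1, Lep, Retn and Cfd, the last listed at 0 in all 5 libraries, summed to 0.295 and 1.74 FPKM in knockout 0 and 1, against 6.36, 3.77 and 4.93 FPKM in control 0, 1 and 2. Plin1, which coats fat droplets, was at 0.0240 and 0.242 FPKM, against 1.32, 0.551 and 1.05 FPKM in the controls. Adipoq, Cidec, Plin1 and Lep put the 5 libraries in the same order as Car3, and Retn did not. The share of all genes in the order of Car3 was not counted. Lep was at 0.00330 FPKM in knockout 0 and at most 0.0488 FPKM (control 0). Its order, and the ratio of Car3 to it, therefore rest on values near 0. The ratio of Car3 to the summed markers was 1.13 and 1.35 in knockout 0 and 1, against 2.55, 1.14 and 2.03 in control 0, 1 and 2. Taken 1 marker at a time, the ratio overlapped between the groups for Adipoq, Plin1 and Retn, and lay below every control in both knockout libraries for Cidec and Lep. Skeletal muscle markers were near 0 in every library, summing to 0.338 and 0.140 FPKM in knockout 0 and 1, against 0.239 to 0.271 FPKM in the controls. Adipoq alone of the adipocyte markers was tested (log2 fold change -1.17, limma adjusted p = 0.0658). The part of fat tissue in the Car3 values was not tested.

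**Figure D4:**
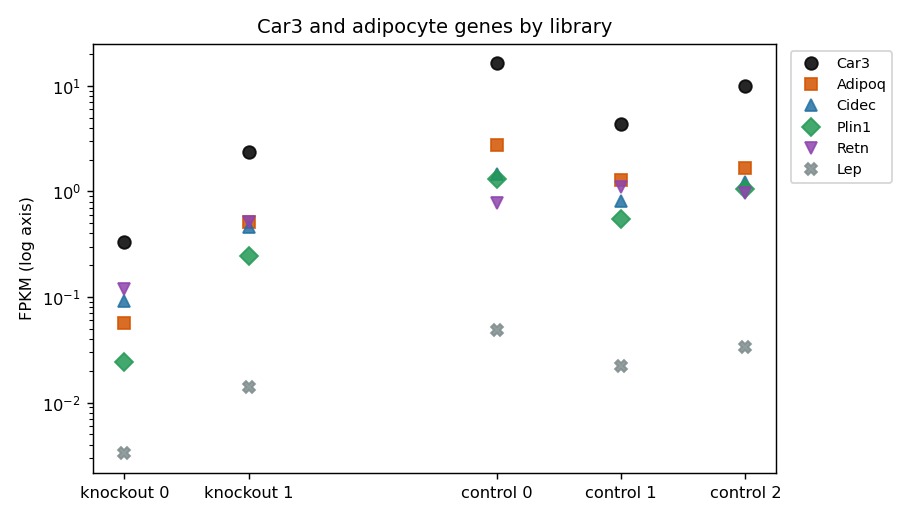
FPKM on a log axis of Car3 and 5 adipocyte markers in the 2 knockout libraries and the 3 controls. Car3, Adipoq, Cidec, Plin1 and Lep are lowest in knockout 0, next lowest in knockout 1 and highest in control 0, and Retn is lowest in knockout 0 and highest in control 1.

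Car13, another cytosolic enzyme, was among the scarcest of the 10 transcripts. Its FPKM was 3.43 in knockout 0 and 1.68 in knockout 1, against 1.31, 1.72 and 1.34 in control 0, 1 and 2. Knockout 0 stood alone and knockout 1 lay within the controls. On the log2(FPKM + 1) scale the groups differed by 0.49 (SE 0.231 and 95% interval -0.09 to 1.07), with an adjusted p by limma of 0.224. Without knockout 1 it was 0.86 and without knockout 0 it was 0.13, each resting on 1 knockout library. Knockout 0 is also the library with the high injury and macrophage markers and with both Xist and Y-linked RNA. The part of these in its Car13 value was not tested. Car13, Car3 and Car2 lie in this order on the plus strand of chromosome 3, and the fitted values of the 3 neighbours had different signs (0.49, -2.25 and 0.17).

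Car5b encodes a mitochondrial enzyme and lies on the X chromosome. Its FPKM was 29.6 in knockout 0 and 39.9 in knockout 1, against 32.4, 40.4 and 35.6 in control 0, 1 and 2. Knockout 0 lay below the controls and knockout 1, the library with the most Xist, lay within them. Fitted over both groups, the difference was -0.06 (SE 0.156 and 95% interval -0.46 to 0.33), with an adjusted p by limma of 0.819, and its sign turned under TPM rescaling (0.015) and quantile normalization (0.0014), without knockout 0 (0.14) and without control 1 (0.017).

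Car8 encodes a relative of the enzymes that lacks catalytic activity and binds an inositol trisphosphate receptor. Its FPKM was 0.683 in knockout 0 and 1.03 in knockout 1, against 1.51, 1.81 and 1.53 in control 0, 1 and 2. The groups did not overlap, at a low level in all libraries. A pseudogene, Gm11799, lies within Car8 on the same strand. On the log2(FPKM + 1) scale the groups differed by -0.50 (SE 0.133 and 95% interval -0.83 to -0.16), with an adjusted p by limma of 0.0862 and an exact permutation p of 0.1. It is on the log2(FPKM + 1) scale, which understates changes at such levels, and was -0.86 with a pseudocount of 0.1 (limma adjusted p = 0.0893). Without knockout 1 the difference was -0.64 and without knockout 0 it was -0.36, each resting on 1 knockout library.

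**Figure D5:**
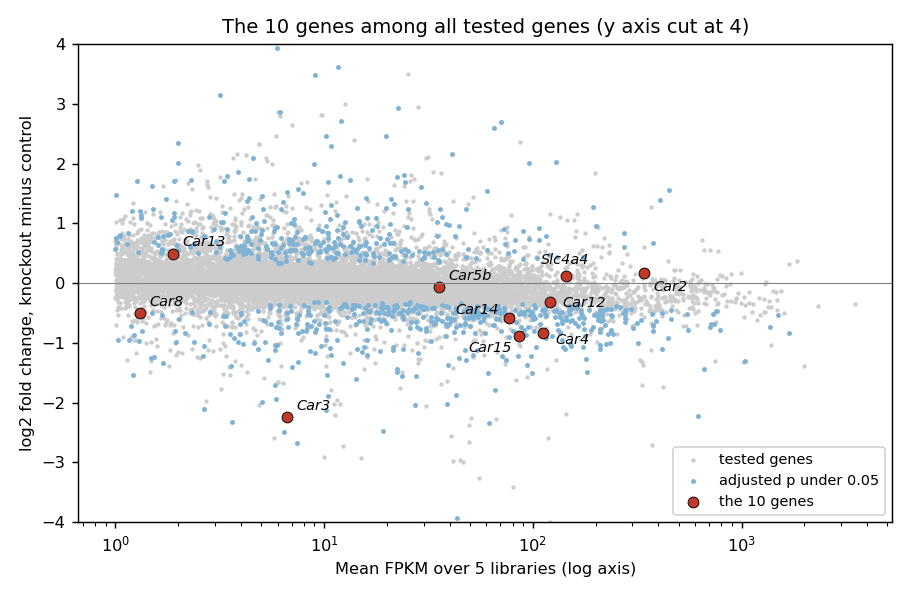
Fitted log2 fold change, knockout minus control (vertical axis), against mean FPKM over 5 libraries (horizontal log axis) for the 12640 tested genes, of which 30 lie outside the plotted range. Blue points have a limma adjusted p under 0.05, grey points do not, and the 10 named genes are red. Of the 10 genes 0 passed, and Car3 lies furthest from 0.

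The rest of the acid and base genes were taken from lists. Over all tested genes 3.62% passed as lower and 2.73% as higher. At an unadjusted p under 0.05, 16.6% were lower and 12.5% higher. Of the 7 other carbonic anhydrases 4 were tested, and 1 of these fell, 0 rose and 3 did not pass. That gene, Car9, encodes a transmembrane enzyme induced by hypoxia. Its FPKM was 4.20 in knockout 0 and 2.06 in knockout 1, against 10.4, 8.72 and 9.78 in control 0, 1 and 2. Both knockout libraries were far below the controls (fitted difference -1.41, SE 0.231, adjusted p by limma 0.0359). The call was lost without control 0, 1 or 2 (limma adjusted p = 0.155, 0.0943 and 0.185) and with no filter on low values (0.0696), while knockout 0 and 1 alone gave -1.03 and -1.79. Car11, which lacks catalytic activity, was at 1.36 and 1.53 FPKM in knockout 0 and 1, against 0.866, 0.992 and 0.910 FPKM in the controls (log2 fold change 0.35, limma adjusted p = 0.114). Car1, the red cell form, and Car6 and Car10 were at or near 0 in every library, the highest value being 0.0396 FPKM.

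Of the 15 other bicarbonate and anion transporters 10 were tested, and 1 fell, 0 rose and 9 did not pass, with a median log2 fold change of -0.08. The 1 that fell was Slc26a1, a sulfate, oxalate and bicarbonate exchanger of the proximal tubule. Its FPKM was 35.2 in knockout 0 and 34.0 in knockout 1, against 57.1, 53.9 and 57.0 in control 0, 1 and 2 (fitted difference -0.68, SE 0.0684, adjusted p by limma 0.0147). The groups were tight and far apart, and the call was lost without control 0 (limma adjusted p = 0.110) or control 2 (0.141). Slc4a1, the chloride and bicarbonate exchanger of acid-secreting intercalated cells and red cells, was at 3.50 and 8.82 FPKM in knockout 0 and 1, against 14.7, 9.89 and 13.7 FPKM in the controls (log2 fold change -1.03, limma adjusted p = 0.133).

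Of 15 tested proton transport genes 0 passed by limma, with 3 lower and 1 higher at an unadjusted p under 0.05. Over all tested genes 16.6% were lower and 12.5% higher at that level. The median log2 fold change of the list was -0.09. The smallest adjusted p belonged to proton pump subunits of intercalated cells. Atp6v1g3 was at 19.4 and 27.8 FPKM in knockout 0 and 1, against 35.9, 45.8 and 35.9 FPKM in the controls (limma adjusted p = 0.0811). Atp6v0d2 was at 14.6 and 20.7 FPKM, against 24.9, 26.4 and 23.9 FPKM in the controls (limma adjusted p = 0.107). Of 7 tested genes of ammonia handling 0 passed by limma, with 2 lower and 0 higher at an unadjusted p under 0.05 and a median of 0.09. Slc38a3, a glutamine transporter, was at 18.1 and 23.2 FPKM in knockout 0 and 1, against 27.5, 28.3 and 29.4 FPKM in the controls (limma adjusted p = 0.0774). Rhbg, an ammonia channel, was at 16.5 and 28.8 FPKM, against 34.8, 44.6 and 37.1 FPKM in the controls (limma adjusted p = 0.109).

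The genes most like Car13 and Car3 across the 5 libraries were found by the largest absolute difference in log2(FPKM + 1) minus the control mean. For Car13 they were Ccdc80, Fstl1 and Smox, within 0.041, 0.043 and 0.049 of it in every library. For Car3 the nearest were Apoa4, Apoc3 and Snora15, with largest differences of 0.76, 0.78 and 0.79, so no tested named gene stayed closer than 0.76 to Car3 in all 5 libraries.

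In mm10 with the GENCODE M21 annotation the genes lie as follows. Car13 (ENSMUSG00000027555.8) spans 14641727 to 14663002, Car3 (ENSMUSG00000027559.5) 14863512 to 14872523 and Car2 (ENSMUSG00000027562.12) 14886273 to 14900770 on the plus strand of chromosome 3, and Car14 (ENSMUSG00000038526.14) 95897768 to 95904691 on its minus strand. Car4 (ENSMUSG00000000805.18) lies on chromosome 11 from 84957786 to 84966044, plus strand. Car15 (ENSMUSG00000090236.3) lies on chromosome 16 from 17835276 to 17838364, minus strand. Car12 (ENSMUSG00000032373.15) lies on chromosome 9 from 66713686 to 66766845, plus strand. Car8 (ENSMUSG00000041261.9) lies on chromosome 4 from 8143362 to 8239041, minus strand. Car5b (ENSMUSG00000031373.4) lies on the X chromosome from 163976822 to 164027997, minus strand. Slc4a4 (ENSMUSG00000060961.14) lies on chromosome 5 from 88886818 to 89239653, plus strand.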

How the data were processed

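FPKM were computed by the authors and deposited as 1 table with 1 column per library (0 columns left unmapped). Per the submitters' processing notes, bcl2fastq and mm10 were used, and per the labels' protocols 1 µg of TRIzol-extracted total RNA went into each Illumina mRNA-seq library. Neither the aligner nor the FPKM program, annotation or strandedness is given in the sources used here. FPKM are not counts, so limma 3.58.1 (R 4.3.3; lmFit, eBayes with a variance trend, two-sided) was run on log2(FPKM + 1) for rows whose mean over the 5 libraries reached 1 FPKM, with Benjamini-Hochberg adjustment over 12640 rows. In 87 tested rows a library is listed at exactly 0, which may be a failed estimate. None of the 10 genes is among them. Tables and plots used Python 3.11.15, pandas 2.3.3 and matplotlib 3.10.9. Positions and transcript lengths come from GENCODE M21. Depth steps were read from 1634 single-transcript genes longer than 2000 bases, as the densest of the lowest 50 values. The labels name no batch. The members and gene lists were chosen with earlier results of these data known. All members were named, and from each acid-base list the 2 genes of smallest adjusted p and any that passed. The proximal and fat markers named beside Car4 and Car3 were picked after their values were seen. Alternatives changed the pseudocount, filter, scaling, variance model, replicate block and libraries.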

Additional observations from a re-analysis of the deposited data

How the results depend on the processing

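Over all genes, 802 passed, 345 higher and 457 lower, against 454 higher and 266 lower after TPM rescaling. With no filter on low values 482 passed. A fit with replicate number as a block passed 28. Leaving out 1 library gave 36 to 2599 passing genes, with 0 to 1 of the 10 genes higher and 0 to 2 lower. With genes listed at 0 left out as well, the counts were 1710 without knockout 0, 3029 without knockout 1 and 0, 138 and 0 without control 0, 1 and 2, and 0 to 1 of the 10 genes were higher and 0 to 3 lower. Where limma called 0, 2393 and 2147 genes had an unadjusted p under 0.05. Calls of Car3, Car8, Car12 and Car13 came only from fits without knockout 1, and that of Car4 only from a fit without knockout 0. Fits with 1 knockout library assume that it varies like the controls. The 10 genes had 0 calls in either direction under the other alternatives, the block included, though Car8 and Car13 were not tested at a mean FPKM of at least 5. Car5b changed sign under TPM rescaling (0.015) and quantile normalization (0.0014) and ranged from -0.27 to 0.14 with a library left out (0.017 without control 1). Slc4a4 ranged from -0.066 to 0.29 there. The cause was not tested. Deviations from the group means correlated at 0.0863 and 0.00236 across genes between libraries of the same number, so the numbers were not taken as pairs. The block also ended the calls of Car9 and Slc26a1 (adjusted p = 0.173 and 0.196).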
